A study of Homo sapiens with 16 samples.

Results

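Imprinted genes are expressed mainly from the copy inherited from 1 parent. The 34 examined here were the genes of a fixed list of imprinted genes whose symbol is carried by at least 1 probe of the array, out of 32080 gene symbols on it. They include the growth factor gene IGF2 with its neighbours on 11p15.5, the DLK1 and MEG3 cluster of 14q32, the Prader-Willi and Angelman region of 15q11-q13, the 7q21 cluster around PEG10, and single genes elsewhere. Of the 34, 11 are listed as expressed from the maternal copy, 19 from the paternal copy and 4 in a way that depends on the tissue. Maternally and paternally expressed are labels of this list below. Whether a label holds in these cells was not tested. These genes have 56 probes, and 1 was used per gene, the brightest on average across the arrays.

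The cells were RPMI-8226 and MM.1S, a pair of established lines from human multiple myeloma (MM). For 6 days each line received the solvent DMSO alone, GSK126, which inhibits EZH2, UNC0638, which inhibits G9a, or GSK126 + UNC0638, with every inhibitor at 1 μM, and the study asked how inhibition of both enzymes alters gene expression in MM cells. Each of the 8 groups had 2 arrays, 16 in all, and each array measured 1 RNA sample with 1 dye. A level below is the log2 intensity of a probe minus the 75th percentile of its array, so it can be set against the same probe on another array but not against another probe. The 75th percentile lay between 256 and 349 on the arrays of RPMI-8226 and between 431 and 477 on those of MM.1S, and 46.5% to 49.7% and 49.9% to 52.8% of spots were well above background. Of 10 plasma cell markers, 9 were well above background on both arrays of all 8 groups, the exception being CD27. Of 13 markers of other cell types, 7 were so in RPMI-8226 with DMSO, among them EPCAM and KRT8, and 8 in MM.1S. Each line was hybridised on its own slide, and a difference between lines cannot be told apart from one between slides. The arrays do not separate the parental copies, and in bulk RNA fewer cells expressing a gene and less of its RNA per cell cannot be told apart.

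Imprinting rests on DNA methylation laid down differently in egg and sperm, and the silent copy of several imprinted genes also carries repressive histone marks. EZH2 places the methyl groups of H3K27me3, and G9a, encoded by EHMT2, those of H3K9me2. Both enzymes are known to contribute to the silencing of the KCNQ1 cluster on 11p15.5 in the mouse placenta, where the long noncoding RNA KCNQ1OT1, antisense to KCNQ1, takes part in it. GSK126 blocks the first enzyme and UNC0638 the second, which makes imprinted genes a group in which to look for a change. Many imprinted genes act on growth, the maternally expressed ones mostly as brakes (CDKN1C, PHLDA2) and the paternally expressed ones often as drivers (IGF2, PEG3).

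CpG methylation acts at CG dinucleotides, so the promoters of 6 genes whose levels are described below are shown with each CG in capitals. The 6 were picked after their values were seen from the 21 genes in the promoter table, which does not hold PHLDA2 and CDKN1C. They were taken from RefSeq on GRCh38.p14 (300 bases, most of them upstream of the annotated start) and are written 5′ to 3′ on the strand of the gene. TFPI2 (chr7:93890704-93891003, minus strand) and PPP1R9A (chr7:94907344-94907643, plus strand) lie in the 7q21 cluster and differed in RPMI-8226 with GSK126 + UNC0638. GRB10 (chr7:50792825-50793124, minus strand, 1 of 5 annotated starts) and NAP1L5 (chr4:88697780-88698079, minus strand) differed in MM.1S. MKRN3 (chr15:23565424-23565723, plus strand) and SNRPN (chr15:24954737-24955036, plus strand, 1 of 4 starts) lie in the same cluster of 15q11-q13 and differed between the lines in opposite directions.
TFPI2: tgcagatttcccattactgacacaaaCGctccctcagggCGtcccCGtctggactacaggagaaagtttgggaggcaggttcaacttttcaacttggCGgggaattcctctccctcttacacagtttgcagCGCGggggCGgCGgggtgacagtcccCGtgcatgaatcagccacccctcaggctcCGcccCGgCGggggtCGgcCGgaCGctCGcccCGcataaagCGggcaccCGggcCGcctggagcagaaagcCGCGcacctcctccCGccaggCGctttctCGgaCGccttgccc
PPP1R9A: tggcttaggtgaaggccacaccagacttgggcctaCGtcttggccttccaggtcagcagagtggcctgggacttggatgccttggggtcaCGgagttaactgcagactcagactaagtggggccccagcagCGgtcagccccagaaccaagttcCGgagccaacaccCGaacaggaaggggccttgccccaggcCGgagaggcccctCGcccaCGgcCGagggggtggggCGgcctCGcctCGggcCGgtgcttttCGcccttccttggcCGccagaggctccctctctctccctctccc
GRB10: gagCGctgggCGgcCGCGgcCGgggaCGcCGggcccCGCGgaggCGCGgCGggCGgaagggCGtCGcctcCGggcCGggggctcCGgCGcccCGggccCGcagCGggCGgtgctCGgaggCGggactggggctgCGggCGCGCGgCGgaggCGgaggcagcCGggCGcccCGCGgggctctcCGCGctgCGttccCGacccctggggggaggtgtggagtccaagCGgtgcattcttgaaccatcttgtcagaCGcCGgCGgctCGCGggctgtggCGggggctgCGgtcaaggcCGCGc
NAP1L5: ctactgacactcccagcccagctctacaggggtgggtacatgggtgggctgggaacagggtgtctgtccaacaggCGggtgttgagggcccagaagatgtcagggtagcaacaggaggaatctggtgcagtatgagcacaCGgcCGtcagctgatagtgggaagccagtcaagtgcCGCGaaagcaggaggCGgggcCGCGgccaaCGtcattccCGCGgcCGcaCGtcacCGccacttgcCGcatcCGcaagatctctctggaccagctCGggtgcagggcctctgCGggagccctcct
MKRN3: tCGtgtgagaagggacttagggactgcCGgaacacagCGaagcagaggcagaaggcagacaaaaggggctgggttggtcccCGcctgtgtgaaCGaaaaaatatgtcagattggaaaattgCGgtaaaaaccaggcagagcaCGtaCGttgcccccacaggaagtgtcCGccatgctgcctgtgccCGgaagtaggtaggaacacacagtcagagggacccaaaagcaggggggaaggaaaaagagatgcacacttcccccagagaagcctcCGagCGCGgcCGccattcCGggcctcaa
SNRPN: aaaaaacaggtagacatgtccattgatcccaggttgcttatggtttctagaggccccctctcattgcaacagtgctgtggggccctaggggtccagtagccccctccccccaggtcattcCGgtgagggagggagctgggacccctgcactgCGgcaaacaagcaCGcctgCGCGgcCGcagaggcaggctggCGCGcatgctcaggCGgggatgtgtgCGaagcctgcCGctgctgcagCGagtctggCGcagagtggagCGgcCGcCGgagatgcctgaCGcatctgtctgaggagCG
The sequences hold 26, 15, 49, 18, 15 and 18 CG in this order. Over 35116 promoters of the same length the median was 14 CG, and 96.0% held at least 1. At least as many CG as in TFPI2 were found in 30.1% of all promoters. At least as many as in PPP1R9A or MKRN3 were found in 48.9%, as in GRB10 in 1.6%, and as in NAP1L5 or SNRPN in 44.5%. For GRB10 and SNRPN the start shown is the one richest in CG. The other starts held 4, 3, 24 and 44 CG in GRB10 and 7, 2 and 11 in SNRPN. CG reads the same on both strands. The 21 genes with a promoter in the table had 51 of them, with a median of 18 CG. A CG is a description of the sequence, no methylation was measured on the arrays, and the probes do not show which start was used.

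Most of the imprinted genes had a signal in at least 1 line, and those without one included IGF2 and H19. A gene was tested in a line if its probe exceeded the background clearly on both arrays of any of the 4 groups, which held for 21 of the 34 (61.8%) in RPMI-8226 and 22 (64.7%) in MM.1S, beside 49.9% and 52.9% of all symbols. The difference was not tested, and the imprinted genes had 1.65 probes each, beside 1.44 for all symbols, of which the brightest was used. In both lines 18 were tested, 3 (PHLDA2, MKRN3 and TFPI2) in RPMI-8226 and not in MM.1S, and 4 (KCNQ1OT1, SNRPN, GRB10 and TP73) in MM.1S and not in RPMI-8226. The other 9 (26.5%, beside 43.3% of all symbols) were tested in neither. Of these, 7 were well above background on none of the 16 arrays by the probe used: H19, a long noncoding RNA; IGF2; the transcription factor gene ASCL2; RTL1, derived from a retrotransposon; NDN, a gene of the MAGE family; the zinc finger gene ZIM2; and DIRAS3, encoding a Ras-like GTPase. Of the remaining pair, MAGEL2 (also of the MAGE family) passed on 1 array and the zinc finger gene PLAGL1 on 2. On 11p15.5 the probes used for IGF2 and H19 were thus dim on every array (another probe of H19 passed on 1), with levels between -7.18 and -4.41 for H19 and between -7.05 and -5.03 for IGF2, while KCNQ1, CDKN1C and SLC22A18 of the same cluster were well above background on all 16 arrays. By parental copy, 2 of 11 maternally, 7 of 19 paternally and 0 of 4 tissue-dependently expressed genes were tested in neither line. A dim probe gives only an upper bound and does not show that a gene was silent.

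**Figure D1:**
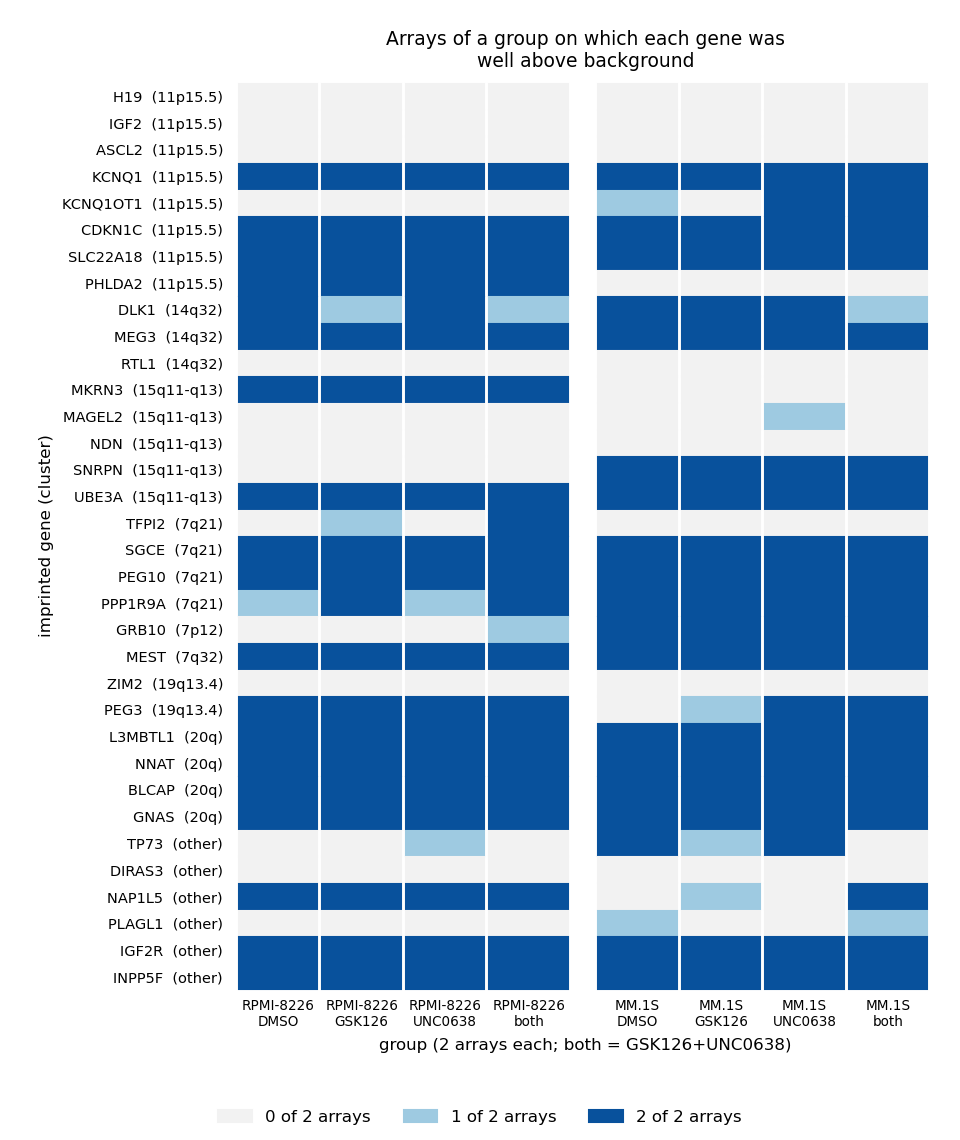
Number of the 2 arrays of each group (columns) on which the probe of each of the 34 imprinted genes (rows, with the cluster in brackets) was well above background, from none (grey) to both (dark blue). PHLDA2, MKRN3 and SNRPN fill the columns of 1 line and are empty in the other, and TFPI2 is dark with GSK126 + UNC0638 in RPMI-8226.

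The lines differed in 17 imprinted genes before any inhibitor. With DMSO, 9 genes were higher in RPMI-8226 and 8 were higher in MM.1S of 25 tested over both lines, by limma over the 16 arrays with Benjamini-Hochberg adjustment over all probes kept and a threshold of 0.05. Of all 18180 genes tested the same way 28.6% were higher and 29.4% lower in RPMI-8226, so the shares of the imprinted genes, in either direction, were close to those of the array. The median difference was 0.23 on the log2 scale, beside -0.01 over all genes. Slide and line cannot be told apart in any of these values. Of the 17, PHLDA2, MKRN3, SNRPN, GRB10 and KCNQ1OT1 passed the filter through 1 line only, the line in which they were higher. The filter thus favoured a difference, and their calls add nothing to the bounds and levels given.

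PHLDA2 and CDKN1C, both maternally expressed genes of 11p15.5 that restrain growth, were higher in RPMI-8226. The probe of PHLDA2 (chr11:2949696-2949755 on GRCh37, as are all probe positions below) had levels of 5.02 and 4.59 in RPMI-8226 and -6.15 and -5.66 in MM.1S, where it was not well above background on any array. RPMI-8226 was at least 770-fold higher (adjusted p = 2.3e-09), a bound taken against the lowest signal well above background. CDKN1C (chr11:2904903-2904962), encoding the cyclin-dependent kinase inhibitor p57, had levels of 3.76 and 3.73 against -0.05 and 0.03, a log2 difference of 3.76 (SE 0.14, adjusted p = 5.68e-09). KCNQ1 (chr11:2870117-2870176), encoding a potassium channel subunit in the same cluster, went the other way, with 3.24 and 3.14 against 4.42 and 4.51, a log2 difference of -1.28 (SE 0.12, adjusted p = 6.57e-06). The probe of its antisense RNA KCNQ1OT1 (chr11:2661803-2661862) was dim, with -6.32 and -6.17 against -4.82 and -4.38. Its fitted difference of -1.65 (SE 0.38, adjusted p = 0.00339) gives no bound on a fold, since only replicate 2 of MM.1S with DMSO was well above background, and without that array the gene was not called. After normexp background correction the difference was 0.07 (adjusted p = 0.667).

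In the Prader-Willi and Angelman region 1 paternally expressed gene was seen in each line alone. MKRN3 (chr15:23812919-23812978), encoding a ring finger protein that holds back puberty, had levels of -0.50 and 0.11 in RPMI-8226 and -6.99 and -6.96 in MM.1S, at least 24.1-fold higher in RPMI-8226 (adjusted p = 1.13e-09). SNRPN (chr15:25220523-25220582), encoding a protein of the spliceosome, had -6.55 and -6.30 in RPMI-8226 and 1.60 and 1.64 in MM.1S, at least 64.5-fold higher in MM.1S (adjusted p = 1.9e-11). Each was at background in the other line on all 8 arrays, treated ones included. UBE3A, a ubiquitin ligase gene of the same cluster listed as maternally expressed, was well above background on all 16 arrays, with group means of 1.71 and 1.67 with DMSO.

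NAP1L5 (chr4:89617464-89617523), a paternally expressed gene of the nucleosome assembly protein family, had levels of -1.47 and -2.04 in RPMI-8226 and -5.37 and -7.02 in MM.1S, at least 8.17-fold higher in RPMI-8226 (adjusted p = 1.31e-05). GRB10 (chr7:50657752-50657786), encoding an adaptor that dampens insulin receptor signalling, had -6.55 and -6.15 against -3.13 and -3.03, at least 2.49-fold higher in MM.1S (adjusted p = 7.08e-06). Its other probe, also at background in RPMI-8226, gave the same direction (at least 1.14-fold, adjusted p = 0.000217).
INPP5F (chr10:121551626-121551685), an inositol phosphatase gene, was lower in RPMI-8226, with -1.39 and -2.0 against 0.87 and 0.68 (-2.47, SE 0.18, adjusted p = 8.75e-07), and SGCE (chr7:94214670-94214729), encoding epsilon-sarcoglycan, with 1.83 and 1.73 against 3.79 and 3.90 (-2.07, SE 0.10, adjusted p = 3.11e-08). MEST (chr7:130145648-130145707), a hydrolase gene, was higher there, with 2.51 and 2.0 against 0.58 and 0.50 (1.72, SE 0.17, adjusted p = 8.4e-06). The same held for IGF2R (chr6:160527114-160527173), whose product clears IGF2 from the cell surface, with 2.61 and 2.41 against 1.16 and 1.28 (1.29, SE 0.10, adjusted p = 2.08e-06). The arrays of the lines did not overlap for any of these 6 genes. They were picked as called and at least 2-fold apart, and the share of all genes without overlap is not given, so this adds nothing to the calls. PPP1R9A, which codes for neurabin, differed by -1.02 (SE 0.24, adjusted p = 0.00448), but after normexp background correction the difference was -0.11 (adjusted p = 0.464). Differences under 2-fold passed for SLC22A18 (0.94), PEG10 (0.74), BLCAP (0.58) and GNAS (-0.31), and GNAS was called in 7 of 16 fits that each left out 1 array. Its other probes disagreed, with 0.93 for the probe A_24_P168574, and at least 1.85-fold lower for A_24_P53595, which was at background in RPMI-8226. The genes not called were PEG3, MEG3, NNAT, TP73, L3MBTL1, DLK1, UBE3A and TFPI2, although other probes of L3MBTL1 (-1.26 and -0.89) were, as was one of TP73 that was at background in RPMI-8226 (at least 1.06-fold lower).

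**Figure D2:**
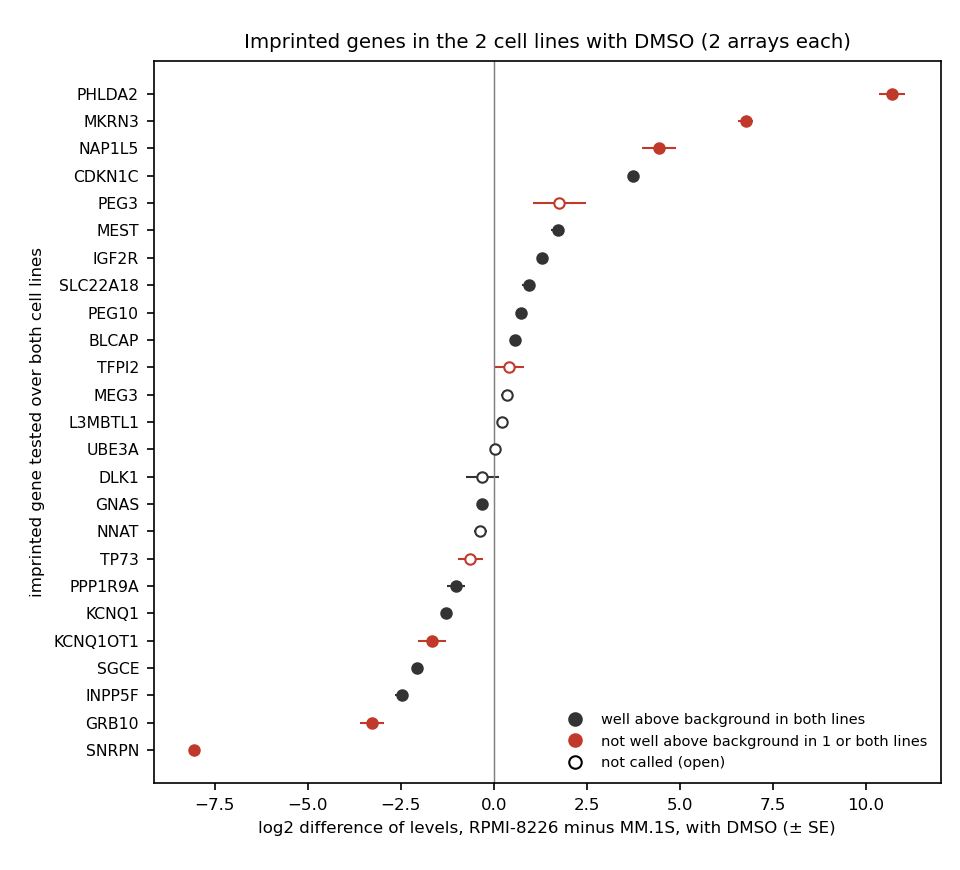
Log2 difference of levels between RPMI-8226 and MM.1S with DMSO (horizontal axis, point with SE, 2 arrays a line) for the 25 imprinted genes tested over both lines. PHLDA2, MKRN3 and NAP1L5 lie farthest to the right and SNRPN and GRB10 farthest to the left, all with a probe at background in 1 line (red), where the distance is a fitted value and no measured size, and open points were not called.

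Across the 6 comparisons with DMSO, 15 of the 25 genes tested in a line were called at least once, 9 only as higher, 5 only as lower and PEG10 in both directions. In RPMI-8226, 3 were called and in MM.1S 13, with PPP1R9A in both lines. These comparisons share the DMSO arrays of a line, so they are not independent of each other. The share of all genes called at least once is not given here, so the counts over several comparisons cannot be set against the array. In RPMI-8226 neither inhibitor alone gave a call among the 21 tested. With GSK126 the share called on the array was 0.612% higher and 0.0499% lower, with UNC0638 0.618% and 0.0687%, so no calls among 21 genes is near the background. At an unadjusted p under 0.05 there were 5 genes with GSK126, 2 higher and 3 lower, and 2 with UNC0638, both higher, beside 10.9% and 9.73% of all genes, so that 2 of 21 is near the background. With the replicate number as a block, UNC0638 gave 1 call, NAP1L5 (0.97, SE 0.15, adjusted p = 0.0437), whose levels of -0.57 and -1.01 lay above -1.47 and -2.04 with DMSO. The block also raised the calls with UNC0638 over all probes, from 0.599% to 1.75%.

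With GSK126 + UNC0638 in RPMI-8226, TFPI2 and PPP1R9A were upregulated and KCNQ1 was downregulated. That is 2 of 21 genes higher and 1 lower, where 8.15% of all 16018 genes tested were higher and 4.72% lower, so the count of calls in this fit is near the background. At an unadjusted p under 0.05 there were 11 of 21 (52.4%), 8 higher and 3 lower, beside 31.6% of all genes. The difference between these shares was not tested. The median over the imprinted genes was 0.12, beside -0.10 over all genes. With the replicate number as a block the count was 7, as PEG3 (2.01, SE 0.33, adjusted p = 0.0121), NAP1L5 (0.67, SE 0.15, adjusted p = 0.0309), INPP5F (0.74, SE 0.19, adjusted p = 0.0418) and SGCE (0.50, SE 0.13, adjusted p = 0.0412) were then called as higher. The block raised the calls over all probes as well, from 12.4% to 20.5%. Without replicate 1 of the combination 1 gene, TFPI2, was called. Quantile normalization and a percentile taken only over probes detected throughout each gave 5 higher and 0 lower in place of 2 and 1. The latter moved the median of all genes from -0.103 to 0.026 in RPMI-8226 and from -0.113 to 0.076 in MM.1S.

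TFPI2, a maternally expressed gene of 7q21 that encodes a secreted inhibitor of serine proteases, was at background with DMSO and well above it with the combination. Its probe (chr7:93516575-93516634) had levels of -6.70 and -6.34 with DMSO, -3.40 and -5.05 with GSK126, -6.67 and -6.57 with UNC0638, and -0.59 and -0.53 with GSK126 + UNC0638. Only the combination arrays and replicate 1 of GSK126 were well above background. The combination was at least 14.2-fold higher than DMSO (adjusted p = 0.00106). The gene entered the test through the combination group alone, the group in which it was high. The filter thus favoured a difference, and the call adds nothing to the bound. With GSK126 alone the adjusted p was 0.142, and it was called without replicate 2 of GSK126, a fit that has 1 array of that group and takes its spread from the other groups. In MM.1S the same probe stayed at background on all 8 arrays, between -7.04 and -6.87.

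PPP1R9A, the maternally expressed gene of neurabin, which binds actin and protein phosphatase 1, lies in the same cluster. In RPMI-8226 its probe (chr7:94925547-94925606) had levels of -3.51 and -3.96 with DMSO, -3.20 and -3.17 with GSK126, -4.12 and -3.50 with UNC0638, and -1.97 and -2.07 with the combination. Both combination arrays lay above all others of the line, a log2 difference of 1.72 from DMSO (SE 0.24, adjusted p = 0.00819). The gene passed the filter there through the groups with GSK126 and with the combination, and without replicate 1 of the combination the adjusted p was 0.06. The second probe of the gene gave 1.09 there (adjusted p = 0.129) and was not called. In MM.1S the levels were -2.92 and -2.52 with DMSO, -1.55 and -1.87 with GSK126, -2.06 and -1.61 with UNC0638, and -0.69 and -0.61 with the combination. The differences were 1.01 (SE 0.21, adjusted p = 0.0443), 0.89 (SE 0.21, adjusted p = 0.0258) and 2.07 (SE 0.21, adjusted p = 0.000686). All 6 treated arrays lay above both DMSO arrays, but the call with GSK126 was lost in 8 of 8 fits with 1 array left out, with UNC0638 in 2 and with the combination in 0. The second probe gave 1.02, 0.61 and 1.70, of which the middle value was not called (adjusted p = 0.0582).

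The other genes of 7q21 are paternally expressed. PEG10, derived from a retrotransposon, had levels in MM.1S of 1.57 and 1.58 with DMSO, 2.44 and 2.41 with GSK126, 1.26 and 1.23 with UNC0638, and 1.84 and 1.74 with the combination. It rose by 0.85 with GSK126 (SE 0.08, adjusted p = 0.00565) and fell by 0.33 with UNC0638 (SE 0.08, adjusted p = 0.0233, lost in 4 of 8 fits with 1 array left out), and the combination lay between them, 0.22 above DMSO (adjusted p = 0.0524). That difference was called under both other scalings, quantile normalization (0.38, adjusted p = 0.0103) and the percentile over detected probes (0.41, adjusted p = 0.0066), and with the filter for all arrays (adjusted p = 0.0458), the series table (0.0491) and the mean over probes (0.0467). It was the gene called in both directions. In RPMI-8226 its differences were 0.52, 0.42 and 0.61, none of them called. SGCE rose by 0.34 with the combination in MM.1S (SE 0.08, adjusted p = 0.0151), with levels of 4.14 and 4.24 against 3.79 and 3.90. The difference in RPMI-8226 was 0.50 (adjusted p = 0.0543), with 2.29 and 2.27 against 1.83 and 1.73.

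KCNQ1, the gene called as lower in RPMI-8226, had levels there of 3.24 and 3.14 with DMSO, 2.55 and 2.86 with GSK126, 3.02 and 3.09 with UNC0638, and 2.53 and 2.55 with the combination. The difference of -0.65 (SE 0.15, adjusted p = 0.0403) was called in 2 of 8 fits with 1 array left out. It was lost under both other scalings (-0.50, adjusted p = 0.0708, and -0.52, adjusted p = 0.0732). In MM.1S the difference was 0.16 and not called, though under both scalings it was called as higher.

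**Figure D3:**
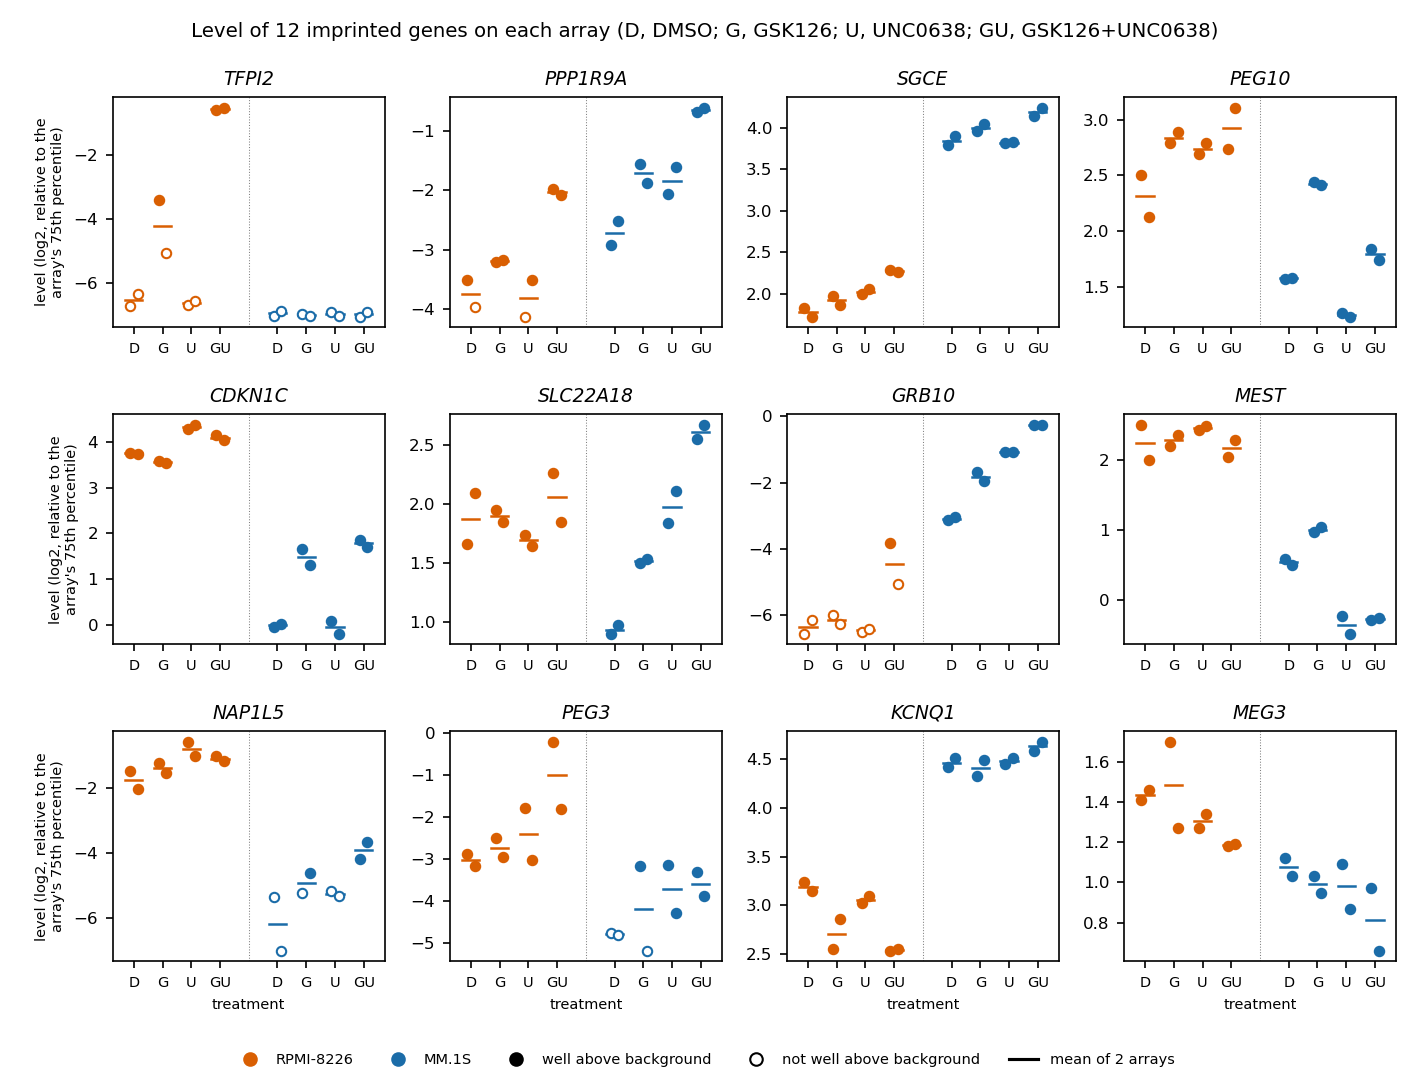
Level of 12 imprinted genes (log2, relative to the 75th percentile of the array) on each of the 16 arrays, by treatment and cell line, with the mean of the 2 arrays as a line and arrays not well above background as open points. TFPI2 rises off the background in RPMI-8226 with the combination, GRB10 in MM.1S is higher with each treatment than with DMSO, and CDKN1C in MM.1S is higher on the arrays that received GSK126.

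In MM.1S, 5 genes were higher and 1 lower of 22 tested with GSK126, beside 5.79% higher and 2.33% lower of all 16986 genes. With UNC0638, 3 were higher and 2 lower, beside 13.6% and 16.5% of all genes. With the combination 8 were higher and 4 lower, beside 23.2% and 32.2%. The medians over the imprinted genes were 0.13, 0.07 and 0.21, beside -0.05, -0.06 and -0.11 over all genes. The split depended on the scaling, as quantile normalization gave 4 and 0, 4 and 1, and 12 and 2, and the percentile over detected probes gave 6 and 0, 5 and 1, and 11 and 1. Leaving out any 1 array gave 3 or 4 calls with GSK126 in place of 6, those held throughout being CDKN1C, GRB10 and PEG10. With UNC0638 it gave 3 in place of 5 without replicate 1 of DMSO or replicate 2 of UNC0638.

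GRB10 had the largest rise in MM.1S with UNC0638 and with the combination. Its levels were -3.13 and -3.03 with DMSO, -1.67 and -1.96 with GSK126, -1.06 and -1.08 with UNC0638, and -0.25 and -0.26 with the combination. The 4 groups did not overlap, and the combination lay highest. The differences from DMSO were 1.27 (adjusted p = 0.00565), 2.01 (adjusted p = 0.000614) and 2.82 (adjusted p = 9.62e-05), each with an SE of 0.11. The second probe gave larger ones, 2.03, 2.76 and 4.06, all called. In RPMI-8226 the probe was at background except on replicate 1 of the combination, at -3.83, and the gene was not tested.

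CDKN1C had levels in MM.1S of -0.05 and 0.03 with DMSO, 1.65 and 1.31 with GSK126, 0.09 and -0.19 with UNC0638, and 1.86 and 1.71 with the combination. It rose by 1.49 with GSK126 (SE 0.15, adjusted p = 0.00771) and by 1.79 with the combination (SE 0.15, adjusted p = 0.00044), while the difference with UNC0638 was -0.04 (SE 0.15, adjusted p = 0.853). Both groups with GSK126 lay above both groups without it. In RPMI-8226 the levels were 3.76 and 3.73, 3.57 and 3.53, 4.27 and 4.37, and 4.15 and 4.03 in the same order, and no difference was called.

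SLC22A18, a maternally expressed gene of a membrane transporter next to CDKN1C (probe chr11:2946335-2946394), had levels in MM.1S of 0.90 and 0.97 with DMSO, 1.5 and 1.53 with GSK126, 1.84 and 2.11 with UNC0638, and 2.55 and 2.67 with the combination. The groups did not overlap. The rises were 0.58 (SE 0.11, adjusted p = 0.0377, lost in 6 of 8 fits with 1 array left out), 1.04 (SE 0.11, adjusted p = 0.00311) and 1.67 (SE 0.11, adjusted p = 0.000249). In RPMI-8226 all 8 arrays lay between 1.64 and 2.26, the groups overlapped, and the differences were 0.02, -0.19 and 0.18. KCNQ1OT1 had levels in MM.1S of -4.61 and -5.37 with GSK126, -4.18 and -4.36 with UNC0638, and -3.24 and -4.17 with the combination, the last 0.90 above DMSO (SE 0.38, adjusted p = 0.0891). It was at background on all 8 arrays of RPMI-8226. PHLDA2 lay between 4.59 and 5.02 on all 8 arrays of RPMI-8226 and at background in MM.1S.

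NAP1L5, at background with DMSO in MM.1S (-5.37 and -7.02), had levels of -5.25 and -4.61 with GSK126, -5.19 and -5.34 with UNC0638, and -4.18 and -3.65 with the combination, at least 1.83-fold higher than DMSO with the combination (adjusted p = 0.0137). In MM.1S the gene entered the test through the combination group alone, so the filter favoured a difference and the call adds nothing to the bound. Without replicate 2 of the combination the adjusted p was 0.0769. In RPMI-8226 its levels with the combination were -1.02 and -1.15. PEG3, a paternally expressed zinc finger gene, was among the most variable. In RPMI-8226 it had -2.87 and -3.15 with DMSO, -2.50 and -2.95 with GSK126, -1.78 and -3.01 with UNC0638, and -0.20 and -1.79 with the combination, a difference of 2.01 for the last that was not called without the block (SE 0.58, adjusted p = 0.0704). In MM.1S it went from -4.75 and -4.81, not well above background, to -3.31 and -3.88 with the combination. That difference was 1.18 (SE 0.69, adjusted p = 0.193). The other probe of PEG3 was at background on every array. Its means in RPMI-8226 were -6.35 with DMSO and -6.42 with the combination, so it showed no rise. A probe at background gives only an upper bound, so it cannot decide whether the difference holds for the gene.

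MEST fell in MM.1S wherever UNC0638 was given. The levels were 0.58 and 0.50 with DMSO, 0.97 and 1.04 with GSK126, -0.23 and -0.49 with UNC0638, and -0.29 and -0.27 with the combination. It fell by 0.90 with UNC0638 (SE 0.11, adjusted p = 0.00393) and by 0.82 with the combination (SE 0.11, adjusted p = 0.00146), and the difference with GSK126 was 0.47 (adjusted p = 0.0532). In RPMI-8226 its differences were 0.03, 0.20 and -0.09, none called. SNRPN fell by 0.41 with GSK126 in MM.1S (SE 0.08, adjusted p = 0.0431), with levels of 1.2 and 1.22 against 1.60 and 1.64, a call lost in 8 of 8 fits with 1 array left out. With the combination SNRPN fell by 0.25 (adjusted p = 0.0436, levels 1.43 and 1.29), a call lost in 7 of 8 such fits. With UNC0638 the difference was -0.25 and not called (levels 1.33 and 1.40).

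The remaining calls in MM.1S were with the combination and under 1.5-fold. L3MBTL1, encoding a reader of methylated histones, rose by 0.55 (adjusted p = 0.00279), and its 3 other probes by 0.42 to 0.53, all called. BLCAP, a small membrane protein gene on 20q, rose by 0.31 (adjusted p = 0.0174), but its other probe gave -0.14 and was not called. UBE3A fell by 0.43 (adjusted p = 0.0164), while its other probe gave 0.44 (adjusted p = 0.39) and the mean of both 0.01. TP73, of the p53 family, fell by 0.41 (adjusted p = 0.0451) to a level not well above background, at least 1.33-fold lower. That call was lost in 6 of 8 fits with 1 array left out, and the other probe of TP73 gave -0.05. SNRPN and UBE3A were not called under either other scaling, nor TP73 under the percentile over detected probes, with all 3 keeping their sign.

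The other 10 genes tested were not called against DMSO in either line: KCNQ1OT1, PHLDA2, DLK1, MEG3, MKRN3, PEG3, NNAT, GNAS, IGF2R and INPP5F. MEG3, the long noncoding RNA of 14q32, had group means from 1.18 to 1.49 in RPMI-8226 and from 0.82 to 1.08 in MM.1S. Another probe of MEG3 was called in MM.1S with the combination (-0.22, adjusted p = 0.0483). DLK1, the membrane ligand gene of that cluster, lay near the background, with differences between -0.65 and 0.08. The means of GNAS, encoding the stimulatory G protein alpha subunit, stayed within 7.07 to 7.24 and 7.44 to 7.47, but its probe A_24_P168574 fell in MM.1S with UNC0638 (-0.38, adjusted p = 0.042) and the combination (-0.48, adjusted p = 0.0106). IGF2R had levels in RPMI-8226 of 2.10 and 2.10 with GSK126, 2.34 and 2.28 with UNC0638, and 2.18 and 2.17 with the combination. In MM.1S they were 0.93 and 0.97, 1.42 and 1.40, and 1.33 and 1.5. INPP5F had -1.44 and -1.45, -1.28 and -1.36, and -0.94 and -0.97 in RPMI-8226, and its arrays with DMSO and GSK126 overlapped. In MM.1S INPP5F had 1.17 and 0.99, 0.84 and 0.76, and 1.01 and 0.77 in the same order, and its probe A_23_P35684 was called there with GSK126 (0.53, adjusted p = 0.0449) and the combination (0.63, adjusted p = 0.00454). MKRN3 lay between -0.86 and 0.11 in RPMI-8226. NNAT, a small membrane protein gene, ranged from -2.67 to -2.05 and from -2.31 to -1.8, with no difference from DMSO above 0.34 in size.

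**Figure D4:**
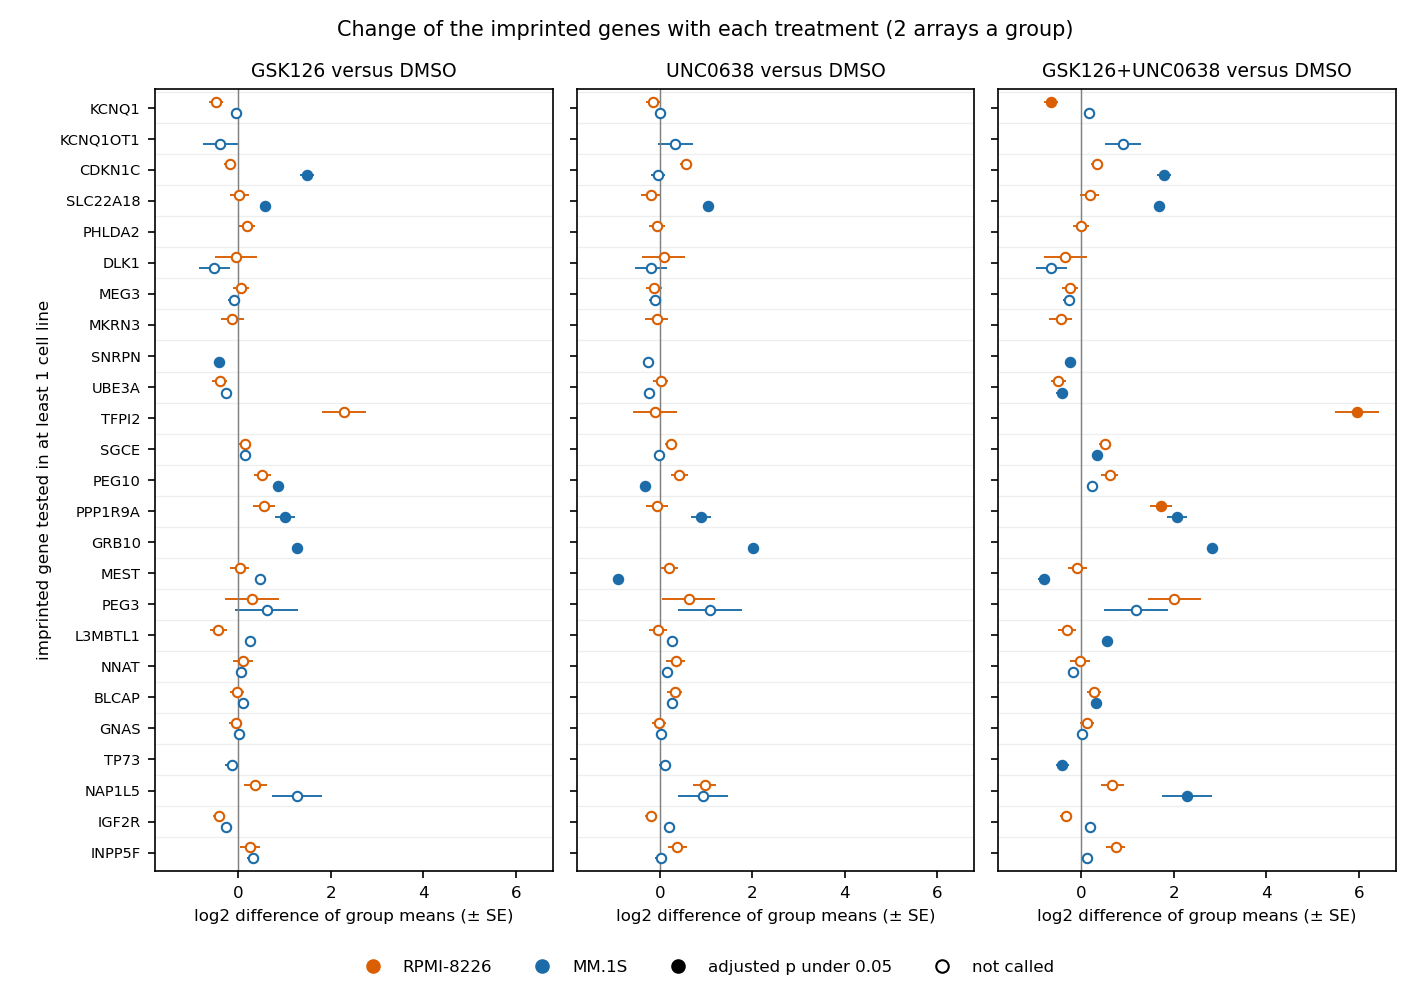
Log2 difference from DMSO with GSK126, UNC0638 and GSK126 + UNC0638 (panels, point with SE, 2 arrays a group) for the imprinted genes tested in RPMI-8226 (orange) or MM.1S (blue), with filled points where the adjusted p was under 0.05. Filled points are absent for RPMI-8226 in the panels of the single agents, and TFPI2 in the combination panel is fitted against a DMSO group at background, so its distance from 0 is no measured size.

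The combination was also set against each single agent, in comparisons that share the combination arrays with those above. TFPI2 in RPMI-8226 was kept through the combination group alone, and KCNQ1OT1 in MM.1S through the groups with UNC0638 and with the combination. The filter thus favoured a difference for TFPI2 against either agent and for KCNQ1OT1 against GSK126. Their calls in these comparisons add nothing to the levels given. In RPMI-8226, TFPI2 was higher with the combination than with GSK126 (3.66, SE 0.48, adjusted p = 0.0138), the only call of 21, where 2.74% of all genes were called in either direction, and it was lost in 2 of 8 fits with 1 array left out. With the block PEG3 was called as well (1.73, SE 0.33, adjusted p = 0.0426), and the calls over all probes went from 2.54% to 5.48%. Against UNC0638, TFPI2 (at least 14.4-fold higher, adjusted p = 0.00239) and PPP1R9A (1.79, adjusted p = 0.015) were called, where 3.70% of all genes were. In MM.1S against GSK126, 6 genes were higher and 2 lower of 22, where 38.5% of all genes were called, so 8 of 22 is close to the background. The higher ones were GRB10 (1.56), KCNQ1OT1 (1.29, at least 2.06-fold), SLC22A18 (1.09), PPP1R9A (1.06), IGF2R (0.47) and L3MBTL1 (0.30), and the lower ones MEST (-1.29) and PEG10 (-0.63). The calls of KCNQ1OT1, L3MBTL1 and IGF2R were lost in 6, 7 and 3 of 8 fits with 1 array left out. Without replicate 2 of GSK126 or replicate 2 of the combination 5 were called. Against UNC0638, 6 were higher and 0 lower, where 14.4% of all genes were called: CDKN1C (1.84), PPP1R9A (1.19), GRB10 (0.82), SLC22A18 (0.63), PEG10 (0.55) and SGCE (0.37). Without replicate 1 of UNC0638 or replicate 2 of the combination 1 of these 6, CDKN1C, was called, and without replicate 2 of UNC0638 there were 2.

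The difference of the effect between the lines was tested over all 16 arrays for 25 genes. With GSK126, the signed difference of CDKN1C from DMSO was higher in MM.1S (RPMI-8226 minus MM.1S -1.69, SE 0.20, adjusted p = 0.00483), the only call, where 0.897% of all genes were called in either direction. With UNC0638, SLC22A18 (-1.23, adjusted p = 0.0283), GRB10 (-2.11, adjusted p = 0.0347) and MEST (1.10, adjusted p = 0.0377) were called, beside 3.19% of all genes, and these calls were lost in 6, 11 and 11 of 16 fits with 1 array left out. With the combination 6 genes were called, beside 14.6% of all genes. TFPI2, kept through the combination group of RPMI-8226 alone, had a fitted difference of 5.99 (SE 0.55, adjusted p = 0.00014) against groups at background, which is no measured size. The filter favoured this difference, and the call of TFPI2 adds nothing to its levels. CDKN1C (-1.45, adjusted p = 0.00138), SLC22A18 (-1.49, adjusted p = 0.00372), KCNQ1 (-0.81, adjusted p = 0.0125), L3MBTL1 (-0.86, adjusted p = 0.0233) and IGF2R (-0.53, adjusted p = 0.0411) had the higher signed difference from DMSO in MM.1S. A fall in RPMI-8226 counts here as well as a rise in MM.1S. The mean of KCNQ1 went from 3.19 to 2.54 in RPMI-8226 and from 4.47 to 4.63 in MM.1S. The calls of CDKN1C and SLC22A18 with the combination held in 16 of 16 such fits, that of IGF2R in 4. Without replicate 2 of the combination in MM.1S 3 genes were called in place of 6. With UNC0638, 0 were called without replicate 2 of DMSO or either replicate of UNC0638 in RPMI-8226, and without either replicate of DMSO or replicate 2 of UNC0638 in MM.1S, and 1 without any other treated array of MM.1S. Under quantile normalization the combination gave 2 and 5 in place of 1 and 5. With DMSO, GRB10 was at background in RPMI-8226 and TFPI2 in both lines, so these differences have no measured base there. For PPP1R9A the effect of the combination was called in both lines and its difference between them was not.

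Calls fell on genes listed under either parental copy. With the combination in MM.1S, 3 of 7 maternally expressed genes tested rose and 2 fell (CDKN1C, SLC22A18 and PPP1R9A against UBE3A and TP73), 3 of 11 paternally expressed ones rose and 2 fell (NAP1L5, L3MBTL1 and SGCE against MEST and SNRPN), and 2 of 4 tissue-dependent ones rose (GRB10 and BLCAP). In RPMI-8226 all 3 calls with the combination were among the 8 maternally expressed genes tested and none among the 10 paternally expressed ones. With the block 4 of the latter were called. Of all genes, 8.15% were higher and 4.72% lower with the combination in RPMI-8226, and 23.2% and 32.2% in MM.1S. Of the 3 calls, TFPI2 passed the filter through the combination group alone, and KCNQ1 was lost in 6 of 8 fits with 1 array left out. A difference between the parental copies was not tested.

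Other genes that imprinting bears on were counted for comparison. Beside each count stand the shares over all genes given above for the combination, 8.15% higher and 4.72% lower with a median of -0.10 in RPMI-8226, and 23.2% and 32.2% with a median of -0.11 in MM.1S. Of 50 further imprinted genes, 45 were on the array. With the combination 5 rose and 2 fell of 22 tested in RPMI-8226 (median -0.23), and 5 rose and 6 fell of 20 in MM.1S (median 0.07). The largest called changes by fitted difference were in RPMI-8226, 3 of them against DMSO groups at background: PON3, a lactonase gene of 7q21 (at least 5.3-fold higher, adjusted p = 0.00254), DDC, encoding DOPA decarboxylase beside GRB10 (at least 1.76-fold higher, adjusted p = 0.00374), CPA4, a carboxypeptidase gene near MEST (at least 2.9-fold higher, adjusted p = 0.04), and BEGAIN of 14q32, which fell by 3.15 (adjusted p = 0.00521). PON3 was also higher in MM.1S with the combination (1.59, adjusted p = 0.00048). Of 35 genes that flank the clusters and are not known as imprinted, 0 rose and 4 fell of 29 in RPMI-8226 (median -0.23) and 5 rose and 14 fell of 30 in MM.1S (median -0.20), with LSP1 (3.86), CTSZ (2.40), WARS (-1.45) and COBL (1.40) the largest, all in MM.1S. Of 29 genes that set or keep imprints, 28 were on the array, and 0 of 23 were called with the combination in RPMI-8226 while 4 (17.4%) had an unadjusted p under 0.05, beside 31.6% of all genes. In MM.1S 7 rose and 12 fell of 23 (median -0.32), among them NLRP2, of the oocyte's maternal complex (at least 1.8-fold higher), TET2, which oxidises methylated cytosine (1.40), UHRF1, which brings DNMT1 to newly copied DNA (-1.35), and the DNA methyltransferase gene DNMT3A (1.28).

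The marker levels moved with the combination as well. The summed linear level of the 10 plasma cell markers, relative to the 75th percentile of the array, was 295 to 339 with DMSO and 196 to 244 with the combination in RPMI-8226, and 570 to 578 and 391 to 402 in MM.1S. Of 9 tested, 3 fell and 1 rose in RPMI-8226 and 8 fell in MM.1S. Beside these and the next counts, 8.15% of all genes were higher and 4.72% lower in RPMI-8226, and 23.2% and 32.2% in MM.1S. Of the 13 markers of other cell types, those well above background on both arrays went from 7 to 10 in RPMI-8226, with 5 higher and 1 lower of 10 tested, and stayed at 8 in MM.1S, with 3 higher and 3 lower of 9 tested, and with summed levels of 81.4 to 96.8 and 77.2 to 77.9, and of 16 to 16.5 and 24.4. KRT19, PECAM1 and CD27 were at background on all 8 arrays of RPMI-8226. The part of these markers in the changes of the imprinted genes was not tested.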

How the data were processed

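The authors labelled total RNA with a single dye, hybridised 1 array per sample (16 in all) and scanned them. The deposited spot intensity, linear and per the labels from Agilent Feature Extraction 10.7, had its background subtracted and was detrended but not normalized between arrays. A second deposited table, for the series, held the same intensities rounded to 3 significant digits (99.9956% equal). Here control spots (4259 of 62976) and outlier spots (220 to 358 per array) were left out, log2 was taken of each intensity, every array was set to its own 75th percentile, and repeated spots were averaged.

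Groups followed the line and treatment in the labels. limma (version 3.58.1, R 4.3.3; lmFit and eBayes) was fitted over the 8 arrays of a line, with 23199 probes kept in RPMI-8226 and 25102 in MM.1S, and over both lines together (26931 probes) for what differed between them, with Benjamini-Hochberg adjustment over all probes kept and a threshold of 0.05. A call also needed the probe to be well above background on at least 1 array of the groups compared. A fold against a group with no array well above background is a bound, taken per array against the higher of the probe's own level and the lowest level well above background. The methods of the study name no test for the arrays. The study calls the samples biological replicates, and the labels do not say whether they came from separate cultures, so p-values measure the spread between these samples. The 2 arrays per group limit the precision.

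The members and all lists were chosen with earlier results of these data known. Per-array values were given for genes called against DMSO with at least a 2-fold change, or called and at least 2-fold apart between the lines with DMSO, and other genes were given by ranges, counts or group means. Up to 4 genes of each further list were named, those with the largest called change with GSK126 + UNC0638. Genes described beyond this rule (PEG10, PEG3, MEG3 and the genes called under 2-fold) were chosen after their values were seen.

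In RPMI-8226 the deviations of same-numbered arrays from the group mean correlated in 6 of 6 pairs of groups (r of 0.254 to 0.415). The replicate numbers of the labels were therefore taken as pairing the samples of that line. The main counts, SE and p-values still come from the fit without the block, in both lines. Those of RPMI-8226 thus leave the pairing out, and counts said to be near the background refer to that fit. The blocked value is given where it changed a call. The fit was tested on simulated data. The alternatives were quantile normalization, the percentile over detected probes, normexp (offset 50), no filter, a filter requiring all arrays, the replicate block, the series table, a mean of each gene's kept probes and each array left out, where the remaining array of a group is assumed to vary like the other groups. Sequences came from the RefSeq promoter table (GRCh38.p14), which held 21 of the 34 genes. Probe positions on GRCh37 came from the file headers, and no position was moved between builds. Allele-specific expression was not analysed here.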

Additional observations from a re-analysis of the deposited data

Results flagged for a closer look

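The effect of GSK126 against DMSO differed between the lines, by limma's interaction term over 16 arrays, for CDKN1C (RPMI-8226 minus MM.1S -1.69). The effect of UNC0638 differed for SLC22A18 (-1.23), GRB10 (-2.11) and MEST (1.10), and that of GSK126 + UNC0638 for TFPI2 (5.99), SLC22A18 (-1.49), CDKN1C (-1.45), L3MBTL1 (-0.86), KCNQ1 (-0.81) and IGF2R (-0.53). For GRB10 the base in RPMI-8226 and for TFPI2 the base in both lines was not well above background, and TFPI2 passed the filter through the combination group of RPMI-8226 alone. Each line was on a slide of its own, and slide and line cannot be told apart.

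H19, whose brighter probe was well above background on no array, has another probe, A_24_P52697, that was well above background on 1 of the 16 arrays, replicate 1 of GSK126 + UNC0638 in RPMI-8226, at a level of -4.20. On replicate 2 of that group it was at -5.25, on the arrays with GSK126 at -4.51 and -4.59, with UNC0638 at -6.74 and -6.51, and on both DMSO arrays of the line at -6.34. No test was made on this probe.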

How the results depend on the processing

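Of 256 counts of called imprinted genes under an alternative, 207 stayed within 1.5 times of the reported count and 49 did not. In RPMI-8226 the count with GSK126 + UNC0638 was 3 as reported, 5 with quantile normalization, 5 with the percentile over detected probes, 5 with normexp, 1 with the filter for all arrays and 7 with the replicate block. The block gave 1 with UNC0638 in place of 0, and 2 for the combination against GSK126 in place of 1. The filter for all arrays gave 0 for the combination against GSK126, 0 against UNC0638, and 10 in place of 17 between the lines, since fewer genes are tested under it. The mean over probes gave 1 in place of 2 against UNC0638. With no filter the counts in MM.1S were 3 with GSK126, 3 with UNC0638, 7 with the combination and 1 for the combination against UNC0638, and 0 for the UNC0638 effect between the lines. The cause was not tested.

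With 1 array left out, the counts in RPMI-8226 ranged from 0 to 1 with GSK126, 0 to 0 with UNC0638, 1 to 4 with the combination, 0 to 1 for it against GSK126 and 1 to 2 against UNC0638. In MM.1S they ranged from 3 to 4, 3 to 5, 8 to 11, 5 to 7 and 1 to 5 in the same order. Between the lines they ranged from 15 to 18 with DMSO, and for the effects from 1 to 2 with GSK126, 0 to 5 with UNC0638 and 3 to 7 with the combination. The UNC0638 effect was lost altogether without any 1 of 6 arrays.

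Of the values of single genes, 664 kept their call and sign, 67 lost the call and 1 reversed, KCNQ1OT1 between the lines with normexp (0.07). In MM.1S the replicate number correlated with r between 0.085 and 0.225 in the 6 pairs of groups, over 0.1 in 5, so the samples share only a number. The block gave 6, 5 and 13 calls there with GSK126, UNC0638 and the combination, and 18 between the lines, where it added PEG3. It lost no call in any comparison. A 2-array group and probes near background limit what could be called, and 9 genes could not be tested.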
